A study of Homo sapiens with 36 samples.

Results

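Gene expression was compared between A549 cells kept for 3 weeks and for 1 week in medium holding 1% cigarette smoke extract (CSE). The comparison took the 3 arrays titled for CSE 1% at 3 weeks and the 3 titled for CSE 1% at 1 week, 6 of the 36 arrays of the study, over the 18417 genes that have a transcript cluster of their own among the 33297 clusters on the array. A transcript cluster is the set of probes that reads the exons of one transcribed locus. A549 is an established line of human lung adenocarcinoma cells, used as a model of the alveolar epithelium. CSE is medium through which the smoke of cigarettes has been drawn, and the percentage gives its share of the culture medium. The study exposed the cells to CSE at 1%, 5% or 10%, or to plain medium as control, for 1, 3 and 5 weeks, with 3 arrays for each concentration and time, described by the authors as separate experiments. CSE was given in medium with 1% serum, the CSE medium was renewed daily, and cultures were passaged once a week. The groups used here were CSE 1%, CSE 5%, CSE 10% and control at 1 and at 3 weeks, and CSE 1% at 5 weeks as a later reading. Control cells changed between the same weeks too, so control values stand beside the main results, and the difference between the change with CSE 1% and the change in control was tested as a contrast of its own. Since all cells are a single tumour line, the arrays do not sample differences between donors, and p-values cover only the spread among the arrays.

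Smoke carries polycyclic aromatic hydrocarbons that bind the aryl hydrocarbon receptor, a transcription factor that induces the cytochromes P450 of the CYP1 family and its own repressor genes. Oxidants and reactive aldehydes in smoke engage other stress programmes, among them NRF2, which drives glutathione and NADPH genes, and ATF4, which drives amino acid synthesis and transport when the translation factor eIF2 is phosphorylated. Alveolar epithelial cells that lose contacts and gain mesenchymal genes are said to undergo epithelial to mesenchymal transition, one of the processes the study followed.

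The cells carried the epithelial genes of A549 in both weeks. KRT8, KRT18, CDH1 and EPCAM lay between percentiles 95.3 and 99.95 of all genes by mean level. The surfactant genes SFTPB and SFTPC lay at percentiles 29.3 and 27.8 and the lineage factor NKX2-1 at 21.3. Other type II markers lay higher, with SFTPD at 48.8, ABCA3 at 73.2 and LPCAT1 at 84.0. Percentiles set different probes side by side and are only a rough guide to abundance. Of 14 markers of leukocytes, endothelium and fibroblasts, 1 passed the test, CD68, a lysosomal protein also made by epithelial cells, which fell from 10.33 to 9.18. The highest value on an array was 14.39 to 14.42 with CSE 1% at 1 week and 14.23 to 14.27 at 3 weeks. Controls showed the same step, from 14.45 to 14.48 at 1 week and from 14.27 to 14.32 at 3 weeks. Labels give no processing date, so within CSE 1% the week and any batch that followed it cannot be told apart. The first principal component of all arrays of the study held 38.8% of the variance. On it replicate 3 of control at 1 week lay at 61.2, apart from its fellow replicates at 6.38 and 23.8. The control arrays at 5 weeks, which entered no contrast here, lay further out at 110.7, 74.6 and 74.6. CSE 1% arrays lay at 2.33, 30.1 and 19.5 at 1 week and at -39.3, -13.1 and -2.14 at 3 weeks. Over 17 housekeeping genes the median change was -0.14 with CSE 1% and 0.10 in control. Centring subtracted from each array the median deviation of these genes. It thereby removed -0.07 from the CSE 1% change, 0.07 from the control change and -0.15 from the difference between them.

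Between 1 and 3 weeks of CSE 1%, 46 genes rose and 148 fell by more than 1 on the log2 scale with B above 0. B is limma's log odds that a gene differs, so that 0 stands for even odds, and these are the limits the study used. Over all genes tested these are shares of 0.250% and 0.804%. At an adjusted p (Benjamini-Hochberg, over all transcript clusters) under 0.05, without a limit on size, 1737 genes rose (9.43%) and 2024 fell (11.0%). The second rule is the one meant wherever a single gene or a list member is said to rise or fall. Of the 46 genes that rose past the fold limit, 2 were microRNA genes and 3 other small RNA genes, whereas 47 of the 148 that fell were small RNA genes. When values were centred on the housekeeping genes, 71 genes passed upwards and 131 downwards. Without replicate 1 at 1 week or replicate 3 at 3 weeks of CSE 1%, 71 and 72 genes passed upwards. In control cells the balance of these genes ran the other way, with 212 higher (1.15%) and 71 lower (0.386%). That contrast did not hold over all 33297 transcript clusters, with or without a symbol. There 314 were higher and 244 lower with CSE 1%, beside 305 and 102 in control. Of the 46 genes that rose with CSE 1%, 13 passed the same limits in control, and so did 41 of the 148 that fell. Across all genes the changes in the 2 media, which share no array, had a Pearson r of 0.50, given as a description because genes are not independent. A later reading was taken from CSE 1% at 5 weeks. Its mean lay on the changed side of the week 1 level for 46 of 46 risen and 136 of 148 fallen genes. The median share of the change left was 80.3% and 83.8%. Since the genes were picked for their change from the same week 1 arrays, that choice favours the changed side. The share over all genes was not computed, so the counts are a description.

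**Figure D1:**
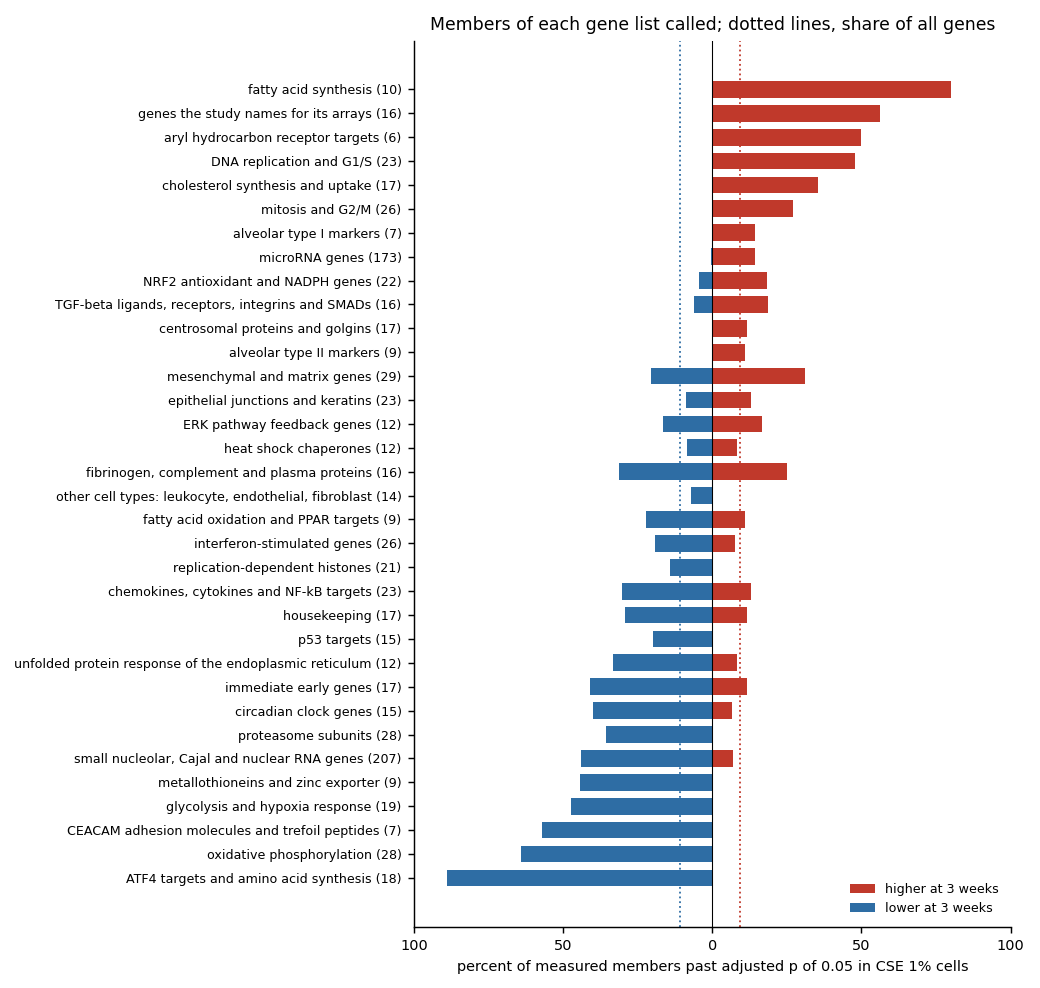
Percent of the measured members of each gene list that rose or fell between 1 and 3 weeks (adjusted p under 0.05) in CSE 1% cells, with dotted lines at the shares over all 18417 genes (9.43% higher, 11.0% lower). The ATF4 list stands out on the lower side (16 of 18 fell) and fatty acid synthesis on the higher side (8 of 10 rose).

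The largest rise among the named genes was that of PLEKHH2. This actin-binding protein of podocyte foot processes had log2 levels of 7.42, 6.98 and 7.10 at 1 week and 9.58, 9.20 and 8.85 at 3 weeks, a rise of 2.04 (standard error 0.18, adjusted p = 2.3e-09). HIPK2, a nuclear kinase that acts on p53, measured 8.27, 8.25 and 8.24 at 1 week and 9.97, 10.05 and 10.13 at 3 weeks and rose by 1.80 (standard error 0.086, adjusted p = 1.2e-14). Both genes had every 3 week array above every 1 week array, and for HIPK2 the gap was many times the spread within a week. The largest changes were named only from genes without such overlap, so its absence adds no support. Over all genes 15.7% lay higher without overlap and 17.5% lower. FRAS1, an extracellular matrix protein of the epithelial basement membrane, read 5.92, 5.90 and 5.87 at 1 week and 7.75, 7.57 and 7.70 at 3 weeks, a change of 1.78. FN1, the fibronectin gene, stood at 9.97, 9.72 and 9.95 at 1 week and 11.30, 11.46 and 11.59 at 3 weeks and rose by 1.57 (standard error 0.10, adjusted p = 1.1e-11). The 3 arrays at 3 weeks lay above those at 1 week without overlap. CDH6, K-cadherin, measured 6.30, 6.13 and 6.21 at 1 week and 7.93, 7.86 and 7.71 at 3 weeks, a rise of 1.62 (standard error 0.13, adjusted p = 2.6e-10). COL12A1, a collagen that coats fibrils, rose by 1.63, PXDN, which crosslinks collagen IV, by 1.34, and the cell cycle kinase gene WEE1 by 1.71. In control cells FN1 changed by 0.18 and FRAS1 by 0.28, and the difference from control passed the test for FN1 (1.39, standard error 0.15, adjusted p = 6.2e-07) and for FRAS1 (1.51, standard error 0.17, adjusted p = 1.2e-06). HIPK2 likewise differed from control, by 1.50 (standard error 0.12, adjusted p = 5.9e-09).

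**Figure D2:**
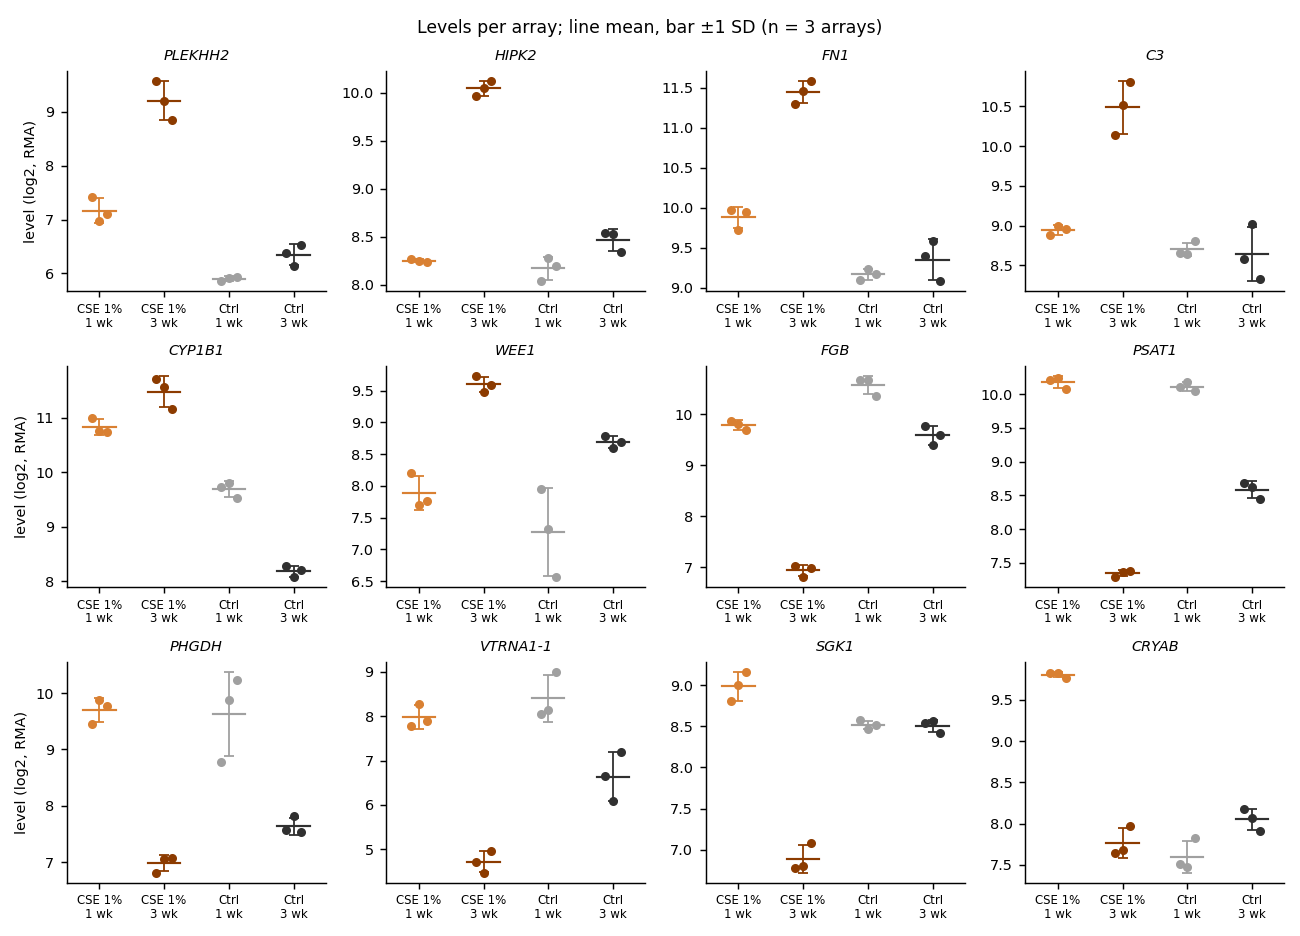
Log2 level of 12 genes on each array at 1 and 3 weeks, for CSE 1% and control cells, with a horizontal line at the mean of 3 arrays and a bar of 1 SD to either side. PLEKHH2, HIPK2, FN1, C3 and WEE1 lie higher at 3 weeks with CSE 1%, and FGB, PSAT1, PHGDH, VTRNA1-1, SGK1 and CRYAB lie lower, while SGK1 and CRYAB did not fall in control.

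The complement and plasma protein genes split. C3, the central complement component, had log2 levels of 8.88, 9.00 and 8.96 at 1 week and 10.14, 10.52 and 10.81 at 3 weeks and rose by 1.54 (standard error 0.17, adjusted p = 1.6e-07). The 3 fibrinogen chains went the other way. FGB, the beta chain, read 9.86, 9.81 and 9.69 at 1 week and 7.03, 6.81 and 6.98 at 3 weeks, a change of -2.85 (standard error 0.20, adjusted p = 6.2e-11). FGG changed by -2.89 and FGA by -2.40, so each chain fell by more than 2 on the log2 scale. Fibrinogen also fell in control cells, where FGB changed by -0.98, FGG by -1.52 and FGA by -0.96. For FGB the difference from control was -1.87 (standard error 0.29, adjusted p = 1.1e-04). Of 16 measured genes of this list 4 rose (C3, F5, APOH and CFB, or 2 to 3 with any 1 array of CSE 1% left out) and 5 fell, against 0 and 7 in control, with a median change of -0.10. TFF1, a trefoil peptide of mucus, read 9.49, 9.98 and 9.85 at 1 week and 7.39, 7.67 and 7.69 at 3 weeks, a change of -2.19 (standard error 0.12, adjusted p = 1.8e-13). CEACAM7, a membrane adhesion molecule, changed by -1.43, and IGFBP1, which binds insulin-like growth factors, by -2.27. Of 7 genes of the CEACAM and trefoil list 4 fell and none rose, against 3 and none in control, and the difference from control passed downwards for 2 and upwards for 1. Over all genes 9.43% rose and 11.0% fell with CSE 1%, beside 6.52% and 5.65% in control. The difference passed upwards for 2.31% of all genes and downwards for 3.86%.

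The ATF4 list fell almost as a whole. Of 18 measured members 16 fell and none rose, where 11.0% and 9.43% of all genes did. Their median change was -1.07 against 0.0014 over all genes. The largest falls lay in serine synthesis. PSAT1, the transaminase of that pathway, had log2 levels of 10.21, 10.24 and 10.07 at 1 week and 7.29, 7.37 and 7.38 at 3 weeks, a change of -2.83 (standard error 0.13, adjusted p = 3.0e-15). PHGDH, the dehydrogenase that commits carbon to serine, measured 9.46, 9.87 and 9.77 at 1 week and 6.82, 7.06 and 7.08 at 3 weeks and fell by 2.72 (standard error 0.21, adjusted p = 2.6e-10). Neither gene showed overlap between the weeks. CTH, which makes cysteine, changed by -2.19, ASNS, asparagine synthetase, by -1.83, and SHMT2, which passes carbon from serine to folate in mitochondria, by -1.14. The stress genes of the list followed, since DDIT3 (CHOP) changed by -1.90, CHAC1, which degrades glutathione, by -1.83 and SESN2, which senses leucine, by -1.34. ATF4 itself read 11.18, 11.21 and 11.27 at 1 week and 10.18, 10.16 and 10.33 at 3 weeks, and fell by 1.00 (standard error 0.073, adjusted p = 1.1e-10), with a change of -0.55 as the mean of its transcript clusters, which differ. Control cells shared the fall, with 13 of 18 members lower where 5.65% of all genes fell, and so did CSE 5% (17) and CSE 10% (16). The difference between CSE 1% and control passed the test for 4 of 18 members, all of them lower with CSE 1%, where 3.86% of all genes passed downwards. The list count was 2 to 7 when 1 array was left out (7 without replicate 3 of control at 1 week).

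Genes of DNA replication and mitosis rose less with CSE 1% than in control. Of 23 replication genes 11 rose and none fell with CSE 1%, at a median of 0.39, and of 26 mitosis genes 7 rose and none fell, at a median of 0.37. In control all 23 and all 26 rose, where 6.52% of all genes did. With CSE 5% the counts were 20 and 26, and with CSE 10% they were 18 and 23. Of all genes 9.43% rose with CSE 1%, 9.21% with CSE 5% and 13.3% with CSE 10%. The change with CSE 1% was below the control change for 21 of the 23 replication genes and 22 of the 26 mitosis genes, where 3.86% of all genes passed in that direction. The starting level differed. At 1 week the CSE 1% arrays lay above all control arrays for 23 of 23 replication genes and 25 of 26 mitosis genes, which held for 14.1% of all genes. At 3 weeks they lay below all control arrays for 7 of 23 and 16 of 26, which held for 13.5% of all genes. The mean log2 level of the replication list on each array was 8.31 to 8.37 with CSE 1% at 1 week and 8.65 to 8.78 at 3 weeks. The same mean was 7.42 to 7.52 in control at 1 week and 8.79 to 8.91 at 3 weeks. For the mitosis list it was 8.30 to 8.45 and 8.69 to 8.93 with CSE 1%. Control cells had 7.58 to 7.63 at 1 week and 9.22 to 9.40 at 3 weeks. In RNA from whole cultures, a larger share of cycling cells and more transcript per cell cannot be told apart.

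**Figure D3:**
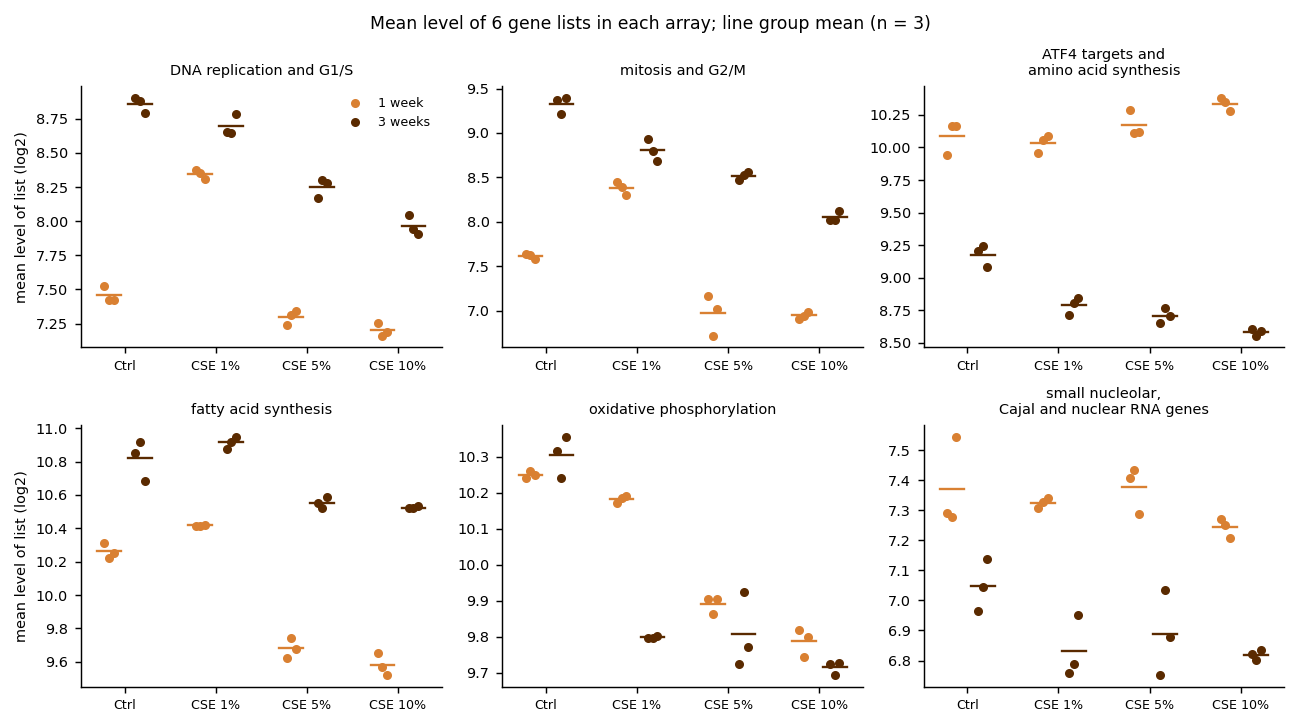
Mean log2 level of 6 gene lists on each array at 1 and 3 weeks for control, CSE 1%, CSE 5% and CSE 10% cells, each point an array and each horizontal line the mean of 3. For replication and mitosis genes CSE 1% starts highest at 1 week and rises least, whereas the ATF4 list falls in all 4 media.

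Within the cell cycle lists the members ranged from clear rises to values that did not pass. MKI67, a coat protein of mitotic chromosomes, had log2 levels of 8.98, 8.74 and 8.73 at 1 week and 10.12, 10.17 and 10.22 at 3 weeks, a rise of 1.36 (standard error 0.12, adjusted p = 5.8e-09). RRM2, the ribonucleotide reductase subunit that supplies deoxynucleotides, read 8.73, 8.85 and 8.51 at 1 week and 9.83, 9.59 and 9.88 at 3 weeks and rose by 1.07 (standard error 0.12, adjusted p = 3.8e-07). Both were higher on all 3 week arrays than on any 1 week array, and in control they rose by 2.50 and 2.49. KIF20A, a kinesin of cytokinesis, read 8.51, 8.68 and 8.34 at 1 week and 8.67, 8.83 and 9.11 at 3 weeks with CSE 1%, a change of 0.36 with an adjusted p of 0.048, which a replicate block moved to 0.052. Its control change was 2.18, and the difference of -1.82 was among the largest falls against control (standard error 0.18, adjusted p = 3.1e-07). DTL, outside the lists, which licenses destruction of the replication factor CDT1, rose by 0.65 (standard error 0.12, adjusted p = 2.3e-04) under CSE 1%, beside 2.38 in control. Replication-dependent histones did not follow the replication genes, since none of 21 rose, where 9.43% of all genes did. In control 9 rose, where 6.52% of all genes did. With CSE 1% 3 of the 21 fell, a share near the 11.0% of all genes. The count of histones that fell was 1 without replicate 1 and 11 without replicate 3 at 3 weeks of CSE 1%. TICRR, also outside the lists, which fires replication origins, rose by 1.40.

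The promoters of MKI67 and KIF20A are shown because one changed clearly with CSE 1% and the other mainly in control. Mitotic genes are often controlled through a CCAAT box, bound by NF-Y, and a cell cycle homology region (CHR), bound by the DREAM and MuvB complexes. Each sequence is the 250 bases before the RefSeq start (GRCh38.p14), 5′ to 3′, with matches to CCAAT and to the CHR letters TTTGAA on either strand in capitals. MKI67 lies at chr10:128126424-128126673, minus strand, and its matches to CHR and CCAAT overlap at one place. KIF20A lies at chr5:138178862-138179111, plus strand.
MKI67: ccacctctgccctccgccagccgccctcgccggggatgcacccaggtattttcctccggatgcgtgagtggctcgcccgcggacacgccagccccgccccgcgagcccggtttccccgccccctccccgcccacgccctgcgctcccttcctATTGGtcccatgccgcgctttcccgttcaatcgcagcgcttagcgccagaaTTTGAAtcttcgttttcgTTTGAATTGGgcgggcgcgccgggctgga
KIF20A: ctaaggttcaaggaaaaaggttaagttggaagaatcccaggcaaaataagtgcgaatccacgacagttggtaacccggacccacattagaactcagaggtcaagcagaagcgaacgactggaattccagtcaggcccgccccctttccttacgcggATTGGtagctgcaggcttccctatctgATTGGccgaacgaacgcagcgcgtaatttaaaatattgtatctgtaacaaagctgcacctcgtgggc
MKI67 held 2 matches to each motif, and KIF20A held 2 to CCAAT and 0 to TTTGAA. Of 21 mitosis genes with a promoter in the table, 19 held CCAAT and 12 held TTTGAA, against 33.0% and 13.6% of all 27303 promoters of that length. These are matches to letters and not sites shown to be bound, and in all 14238 of the 18417 genes had a promoter.

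The aryl hydrocarbon receptor targets CYP1B1 and TIPARP rose with CSE 1% and fell in control. CYP1B1, a cytochrome P450 that oxidises smoke hydrocarbons, had log2 levels of 10.99, 10.76 and 10.73 at 1 week and 11.70, 11.57 and 11.16 at 3 weeks with CSE 1%, a rise of 0.65 (standard error 0.12, adjusted p = 1.9e-04). In control it read 9.73, 9.80 and 9.53 at 1 week and 8.28, 8.08 and 8.20 at 3 weeks, a change of -1.50. The 3 week arrays therefore separated the media by more than the spread, and the difference of 2.15 passed the test (standard error 0.17, adjusted p = 3.5e-09). TIPARP, a mono-ADP-ribosyltransferase that represses the receptor, measured 10.73, 10.76 and 10.81 at 1 week and 11.39, 11.28 and 11.18 at 3 weeks, a rise of 0.52 against a control change of -0.77 (difference 1.29, standard error 0.098, adjusted p = 2.3e-09). ALDH3A1, an aldehyde dehydrogenase, rose by 0.33. CYP1A1 changed by 0.11 (adjusted p = 0.61). In all, 3 of 6 listed targets rose with CSE 1% and none fell, whereas 1 rose and 2 fell in control. The difference from control passed for 2 of the 6, both upwards. Over all genes 9.43% rose with CSE 1%, 6.52% rose and 5.65% fell in control, and 2.31% differed upwards.

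**Figure D4:**
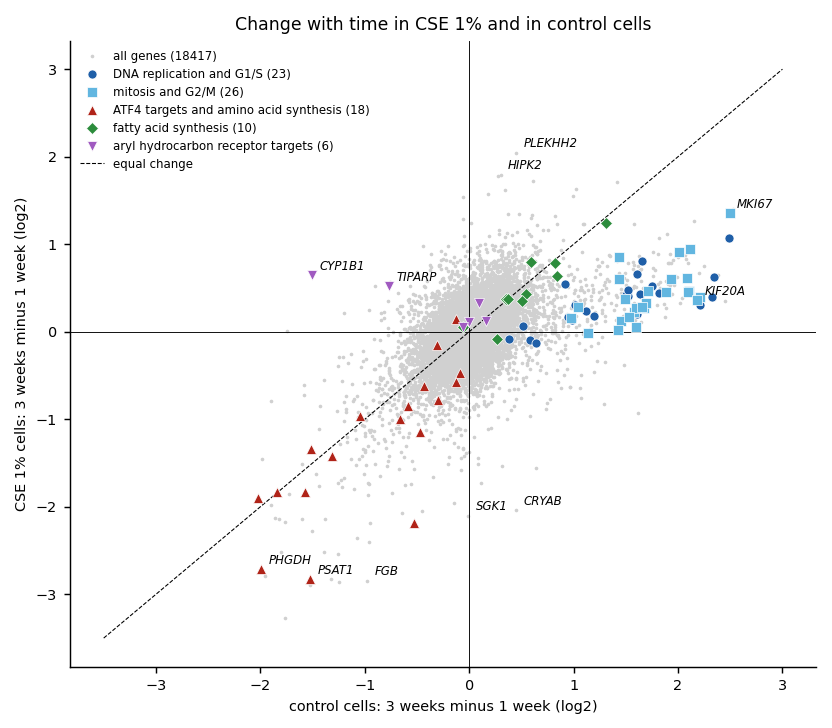
Log2 change from 1 to 3 weeks in CSE 1% cells against the same change in control cells, each grey point a gene, coloured points the members of 5 lists, and the dashed line equal change in both. Replication and mitosis genes lie on the control side of the line, with larger rises in control than with CSE 1%.

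The TIPARP promoter is shown because its gene moved in opposite directions in the 2 media. The receptor with its partner ARNT binds the core GCGTG, here searched on both strands and set in capitals in the 250 bases before the RefSeq start (GRCh38.p14, chr3:156674340-156674589, plus strand).
TIPARP: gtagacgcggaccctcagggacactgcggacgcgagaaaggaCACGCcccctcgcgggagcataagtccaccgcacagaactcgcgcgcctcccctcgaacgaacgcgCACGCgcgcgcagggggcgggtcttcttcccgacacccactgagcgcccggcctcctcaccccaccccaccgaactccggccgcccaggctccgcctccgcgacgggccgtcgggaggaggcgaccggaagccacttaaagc
TIPARP held 2 matches, and 31.9% of all promoters of this length held at least 1. The letters are short, so a match describes the sequence and not binding.

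Other genes fell with CSE 1% while control stayed level or rose. SGK1, a kinase induced by glucocorticoids and cell shrinkage, had log2 levels of 8.81, 9.00 and 9.16 at 1 week and 6.78, 6.80 and 7.08 at 3 weeks, a change of -2.10 (standard error 0.089, adjusted p = 8.1e-16), beside -0.01 in control. CRYAB, a small heat shock protein, read 9.83, 9.82 and 9.77 at 1 week and 7.64, 7.68 and 7.97 at 3 weeks, a change of -2.04 against 0.45 in control. Control arrays of CRYAB lay at 7.50, 7.47 and 7.82 at 1 week, below all CSE 1% arrays of that week, and at 8.17, 8.07 and 7.91 at 3 weeks. Both genes lay below any 1 week value on all 3 week arrays of CSE 1%, and their differences from control were -2.10 (standard error 0.13, adjusted p = 1.5e-11) and -2.49 (standard error 0.18, adjusted p = 1.0e-09). MAPK4, an atypical kinase of the MAP kinase family, changed by -1.56 with CSE 1% and by 0.64 in control, and ARRDC4, an arrestin of the TXNIP family, by -1.44 and 0.09. In the other direction CEMIP, which degrades hyaluronan, changed by 0.98 with CSE 1% and -0.45 in control. Over all genes 34 changes were more positive with CSE 1% than in control by the fold limit and B (0.185%) and 155 more negative (0.842%). Centred on the housekeeping genes the counts were 75 and 96, and without replicate 3 of control at 1 week 52 changes were more positive. By adjusted p, 18 of the 46 risen genes and 63 of the 148 fallen genes differed from control in the same direction. Over all genes 2.31% differed upwards and 3.86% downwards. Since the 46 and 148 were picked for the CSE 1% change, which is part of that difference, the choice favours such counts.

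Genes of lipid synthesis rose in both media. Of 10 fatty acid synthesis genes 8 rose with CSE 1% and 8 in control, with a median of 0.40 with CSE 1%. Over all genes 9.43% rose with CSE 1% and 6.52% in control, and 3.86% differed downwards from control. FASN, fatty acid synthase, had log2 levels of 9.52, 9.42 and 9.56 at 1 week and 10.52, 10.79 and 10.93 at 3 weeks and rose by 1.24 (standard error 0.16, adjusted p = 2.2e-06). ACACA, which makes malonyl-CoA, rose by 0.79 and the elongase ELOVL6 by 0.79. In control FASN rose by 1.31, and the difference between media was -0.07 (standard error 0.23, adjusted p = 0.93). Of 17 cholesterol genes 6 rose with CSE 1% and 12 in control, none fell, and 2 rose less with CSE 1%. HMGCS1, the synthase that opens the mevalonate pathway, read 10.57, 10.47 and 10.42 at 1 week and 11.94, 11.71 and 11.48 at 3 weeks, a rise of 1.23 (standard error 0.13, adjusted p = 8.9e-08), without overlap between weeks. SQLE, squalene epoxidase, rose by 0.80. PLIN2, which coats lipid droplets, went down, from 8.65, 8.73 and 8.93 at 1 week to 7.21, 7.10 and 7.05 at 3 weeks, a change of -1.65 (standard error 0.096, adjusted p = 8.5e-13).

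Oxidative phosphorylation genes were lower at 3 weeks of CSE 1%. Of 28 measured members 18 fell and none rose, at a median of -0.35, while 2 rose and none fell in control. Over all genes 11.0% fell and 9.43% rose with CSE 1%, and 5.65% fell and 6.52% rose in control. The difference from control passed downwards for 3.86% of all genes. The list mean was 10.17 to 10.19 on the arrays of CSE 1% at 1 week and 9.80 on each at 3 weeks. With CSE 5% and CSE 10% it was already 9.86 to 9.91 and 9.74 to 9.82 at 1 week. COX7B, a subunit of cytochrome c oxidase, read 8.80, 8.91 and 8.96 at 1 week and 7.75, 7.79 and 7.72 at 3 weeks, a change of -1.13 (standard error 0.20, adjusted p = 1.4e-04). COX5B changed by -0.94 and NDUFA2, of complex I, by -0.78. The difference from control passed for 12 of 28 members, but for 1 when values were centred on the housekeeping genes, for 3 in a fit of the compared arrays alone, and for 4 to 12 when 1 array was left out (4 without replicate 1 of control at 1 week). Of 28 proteasome subunits 10 fell and none rose, while none fell and 1 rose in control, with PSMA6, an alpha ring subunit, changed by -0.73. The proteasome count was 4 or 5 without replicate 2 or 3 at 1 week, or replicate 1 or 2 at 3 weeks, of CSE 1%. The 5 housekeeping genes that fell were B2M, RPL30, PPIA, PSMC4 and SDHA, with changes from -0.27 to -0.62, and SDHA and PSMC4 belong to these lists too.

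Genes of glycolysis and the hypoxia response were lower. Of 19 measured 9 fell and none rose, at a median of -0.33, and 4 fell in control, with 4 differences from control, all downwards. Over all genes 11.0% fell with CSE 1% and 5.65% in control, and 3.86% differed downwards. The starting level differed here too. With CSE 1% the list mean was 9.43 to 9.46 on the arrays at 1 week and 8.99 to 9.06 at 3 weeks. Control arrays had 9.10 to 9.24 and 8.95 to 9.02, so the media overlapped at 3 weeks. VEGFA, the endothelial growth factor, fell by 1.00, while ADM, the vasodilator adrenomedullin, changed by -1.06 and SLC2A3, a glucose transporter, by -0.89. ANGPTL4, an inhibitor of lipoprotein lipase, had log2 levels of 7.85, 7.95 and 7.84 at 1 week and 6.62, 6.90 and 7.08 at 3 weeks, a change of -1.01 (standard error 0.12, adjusted p = 3.3e-07). The glucose-sensing arrestins TXNIP and ARRDC4 both fell, with changes of -1.10 and -1.44. The ANGPTL4 promoter is shown for the core ACGTG that hypoxia-inducible factors bind, a string that also lies inside the E-box CACGTG, searched on both strands and set in capitals in the 250 bases before the RefSeq start (GRCh38.p14, chr19:8363905-8364154, plus strand).
ANGPTL4: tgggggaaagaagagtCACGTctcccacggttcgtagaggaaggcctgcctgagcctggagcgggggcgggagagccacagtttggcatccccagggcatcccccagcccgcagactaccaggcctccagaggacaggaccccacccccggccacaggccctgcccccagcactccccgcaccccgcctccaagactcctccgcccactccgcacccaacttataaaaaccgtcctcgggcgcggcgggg
ANGPTL4 held 1 match, and 9 of 16 listed genes with a promoter held at least 1, against 18.7% of all promoters.

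Several clock and immediate early genes fell. NR1D1, the nuclear receptor that represses BMAL1, read 9.00, 9.56 and 9.63 at 1 week and 7.56, 7.92 and 7.98 at 3 weeks, a change of -1.58 (standard error 0.19, adjusted p = 5.9e-07), and PER1 fell by 1.11. PER3 rose by 0.35, so that 6 of 15 clock genes fell and 1 rose, against 2 and 1 in control. Over all genes 11.0% fell and 9.43% rose with CSE 1%, beside 5.65% and 6.52% in control. DUSP1, a phosphatase that switches off MAP kinases, changed by -1.66, and DUSP5, which acts on ERK, by -1.42. EGR1, an early growth response factor, read 8.37, 8.69 and 8.75 at 1 week and 9.31, 9.16 and 9.22 at 3 weeks and rose by 0.63 (standard error 0.17, adjusted p = 0.0069), whereas FOS changed by -0.74 and JUNB by -0.52. In all 7 of 17 immediate early genes fell and 2 rose, against 4 and 4 in control. Without replicate 1 at 1 week of CSE 1% none of these rose.

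Mesenchymal and matrix genes did not move one way. Of 29 measured members 9 rose and 6 fell, where 9.43% and 11.0% of all genes did, at a median of 0.04. In control 0 rose and 2 fell, where 6.52% and 5.65% of all genes did. The difference from control passed upwards for 6 members and downwards for 2, where 2.31% and 3.86% of all genes did. Those that rose included FN1, the matrix protease MMP2 (0.81), N-cadherin CDH2 (0.66) and tropomyosin TPM1 (0.62). Those that fell included the matricellular protein CCN1 (-0.55), the calcium-binding S100A4 (-0.53), the repressor of E-cadherin SNAI1 (-0.46) and smooth muscle actin ACTA2 (-0.40). Vimentin, VIM, changed by 0.03 (adjusted p = 0.87). The epithelial cadherin CDH1 rose by 0.35 rather than falling, from 10.96, 10.88 and 11.00 to 11.26, 11.32 and 11.31, and so did the tight junction protein TJP1 (0.61), while the epithelial factor ELF3 fell by 1.22. Of 23 epithelial genes 3 rose and 2 fell, against 1 and 1 in control, shares near the 9.43% and 11.0% of all genes with CSE 1%. Of 16 genes the study names for its arrays, a list drawn from these samples and so no independent evidence of direction, 9 rose and none fell, and 8 differed upwards from control, as 2.31% of all genes did (4 without replicate 1 of control at 1 week or replicate 2 of CSE 1% at 1 week). ITGB6, the epithelial integrin chain that activates latent TGF-β, rose by 0.91, and LTBP1, which holds that latent complex in matrix, by 0.64. Of 16 genes of TGF-β ligands, receptors, integrins and SMADs 3 rose and 1 fell, where 9.43% and 11.0% of all genes did. In control 1 rose and 1 fell.

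Chemokine genes divided too. CCL2, which draws monocytes, had log2 levels of 7.80, 7.63 and 7.92 at 1 week and 9.04, 8.92 and 9.39 at 3 weeks and rose by 1.33 (standard error 0.15, adjusted p = 3.3e-07). CCL20, which draws dendritic cells and lymphocytes, read 7.16, 7.15 and 7.25 at 1 week and 5.78, 5.76 and 5.57 at 3 weeks, a change of -1.48 (standard error 0.17, adjusted p = 3.4e-07). CXCL8, which draws neutrophils, changed by -1.06 and PTGS2, inducible cyclooxygenase, by -1.12. In control CCL2 changed by 0.60 and CCL20 by -0.55. Of 23 genes of this list 7 fell and 3 rose, where 11.0% and 9.43% of all genes did, against 5 and 1 in control.

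In the remaining lists fewer members moved, and several counts lie near the shares over all genes, 9.43% higher and 11.0% lower. Of 22 NRF2 genes 4 rose and 1 fell, against 4 and 0 in control. ABCC3 and ABCC2, exporters of conjugated compounds, rose by 0.73 and 0.62, and GCLC, which limits glutathione synthesis, by 0.54, while HMOX1, haem oxygenase, fell by 0.56. Of 12 heat shock genes CRYAB fell and HSPB1 rose by 0.19, while 4 rose in control. Metallothioneins, which bind zinc and cadmium, had 4 of 9 lower and none higher, against 3 higher in control, and all 4 calls were lost without replicate 2 at 1 week or replicate 1 at 3 weeks of CSE 1%. The difference from control passed downwards for 4 of the 9, and for 4 to 6 over the alternatives, where 3.86% of all genes did. At 1 week the list mean was 8.77 with CSE 1% and 8.06 in control, and at 3 weeks 8.30 and 8.61. MT1X, the steepest, read 9.56, 10.00 and 9.98 at 1 week and 8.67, 9.02 and 9.38 at 3 weeks, a change of -0.82 (standard error 0.25, adjusted p = 0.018). HERPUD1, which clears misfolded proteins from the endoplasmic reticulum, fell by 1.05, and 4 of 12 genes of that response fell and 1 rose, against 2 and 2 in control. Of 15 p53 targets 3 fell and none rose, against 2 and none in control, led by the secreted stress factor GDF15 (-1.30), and CDKN1A changed by -0.27 (adjusted p = 0.19). The p53 count was 1 without replicate 2 at 1 week or at 3 weeks of CSE 1%. Of 26 interferon-stimulated genes 5 fell and 2 rose, against 1 and 1 in control, and 2 fell without replicate 1 at 1 week or replicate 2 at 3 weeks. Fatty acid oxidation and PPAR targets had 2 of 9 lower and 1 higher, ERK feedback genes 2 of 12 each way, and centrosomal proteins and golgins 2 of 17 higher. With a replicate block 1 ERK feedback gene rose, without SPRED2, and 1 centrosomal gene, without CEP192. Among alveolar markers 1 of 9 for type II and 1 of 7 for type I rose, ABCA3 and EMP2.

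Many small RNA genes fell. VTRNA1-1, a vault RNA made by RNA polymerase III, had log2 levels of 7.77, 8.29 and 7.88 at 1 week and 4.72, 4.47 and 4.95 at 3 weeks, a change of -3.27 (standard error 0.31, adjusted p = 1.4e-08), the largest fall among named genes. Of 207 small nucleolar, Cajal and nuclear RNA genes 91 fell and 14 rose, where 11.0% and 9.43% of all genes did, at a median of -0.29. These RNAs guide modification of ribosomal RNA and splicing. The fall was shared with control, where 61 fell and 7 rose, and 4 of the 207 differed from control, all downwards, a share below the 3.86% of all genes. Many lie in introns of host genes and in near-identical families, so probes can share signal between copies.

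Of 173 measured microRNA genes 25 rose and 1 fell, at a median of 0.10, where 9.43% of all genes rose. In control 5 rose and 3 fell, and the difference from control passed for 1. MIRLET7G had log2 levels of 6.87, 6.48 and 6.53 at 1 week and 7.32, 7.30 and 7.25 at 3 weeks, a rise of 0.66 (standard error 0.14, adjusted p = 7.3e-04). MIRLET7A2 rose by 1.13, MIR148B by 0.65, and MIR21 and MIR221 by 0.89 and 1.16. Without replicate 2 or 3 at 1 week, or replicate 1 or 2 at 3 weeks, 10 to 16 microRNA genes rose, a share below the 9.43% of all genes in the fit with all arrays. All 5 of these genes have a mature sequence in RefSeq (GRCh38.p14). The sequences are shown because the let-7 genes share a seed, bases 2 to 8 of the mature strand in capitals, through which a microRNA pairs with its targets.
hsa-let-7g-3p: cUGUACAGgccacugccuugc
hsa-let-7g-5p: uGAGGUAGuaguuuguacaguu
hsa-let-7a-2-3p: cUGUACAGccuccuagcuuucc
hsa-let-7a-5p: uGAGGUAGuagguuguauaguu
hsa-miR-148b-5p: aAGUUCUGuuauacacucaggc
hsa-miR-148b-3p: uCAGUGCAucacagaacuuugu
hsa-miR-21-5p: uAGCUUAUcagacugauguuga
hsa-miR-221-3p: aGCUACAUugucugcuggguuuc
The 5′ strands of let-7g and let-7a carry the same seed, and so do their 3′ strands. An array cluster reads the locus, so the strands and the processed and precursor forms cannot be told apart.

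By the fold limit and B, 225 genes were higher (1.22%) and 108 lower (0.586%) with CSE 5%, and 245 higher (1.33%) and 193 lower (1.05%) with CSE 10%. By adjusted p, most of the genes that moved with CSE 1% also moved at these concentrations. Of the 46 genes that rose with CSE 1%, 44 also rose with CSE 5% (9.21% of all genes rose there) and 38 with CSE 10% (13.3%). Of the 148 that fell, 118 fell with CSE 5% (9.53% of all genes) and 124 with CSE 10% (11.6%). These counts use adjusted p. By that rule 27 of the 46 also rose in control (6.52% of all genes) and 101 of the 148 fell (5.65%). By the fold limit and B, 18 of the 46 passed with CSE 5%, 24 with CSE 10% and 13 in control. Of the 148, 70 passed with CSE 5%, 82 with CSE 10% and 41 in control. The change with CSE 1% exceeded that with CSE 5% by the fold limit and B for 18 genes (0.0977%) and lay below it for 129 (0.700%). Against CSE 10% the counts were 64 (0.348%) and 116 (0.630%). By adjusted p alone they were 301 (1.63%) and 461 (2.50%) against CSE 5%, and 477 (2.59%) and 647 (3.51%) against CSE 10%. NUPR1, a stress-induced chromatin protein, changed by -0.59 with CSE 1% and by -2.40 with CSE 5%. SCD, the desaturase that makes oleate, had a change of -0.08 (adjusted p = 0.6) with CSE 1%, 1.56 with CSE 5% and 1.71 with CSE 10%. HSPA6, a strictly inducible heat shock protein, read 6.03 and 5.96 as means at 1 and 3 weeks of CSE 1%, while its change was -4.87 in CSE 10%.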

How the data were processed

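RNA of A549 cells was hybridised to 36 Affymetrix Human Gene 1.0 ST arrays. The authors deposited log2 values after RMA, which corrects background, normalises between arrays and summarises probes per transcript cluster (per the labels R 2.11.0, RMA and limma; methods name the package oligo). No source used here names the genome build behind the annotation. The value table was used as deposited. The number of arrays limits precision.

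Of 33297 clusters 19460 carried 1 symbol, 1754 several and 12083 none. A gene with several clusters of its own (769 genes) was read from the brightest one, which left 18417 genes. A linear model with 1 mean per group over all 36 arrays (24 residual degrees of freedom) was fitted to all clusters in limma 3.58.1 (R 4.3.3) with empirical Bayes variances and a prior proportion of changed features of 0.01, and contrasts were read for CSE 1%, control, CSE 5% and CSE 10% and for the differences between their changes. Adjusted p-values follow Benjamini-Hochberg. Tested on simulated data with 200 changed clusters of 33297, the CSE 1% contrast recovered 47.5% at a change of 0.5, 93.5% at 1 and 96% at 1.5 on the log2 scale. Tables and figures were made with Python 3.11.15, pandas 2.3.3, numpy 2.4.6 and matplotlib 3.10.9.

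Members and gene lists were chosen with earlier results of these data known. Named genes were at most 15 per direction, taken by size of change among those past adjusted p whose arrays did not overlap, up to 5 members of each list by p, up to 8 genes per direction for the difference from control and 3 for each difference from CSE 5% and CSE 10%, and the genes the study names. ACTA2, APOH, CCN1, CFB, COX5B, DDIT3, EGR1, ELOVL6, EPCAM, KRT8, KRT18, NDUFA2, PER3, PPIA, S100A4, SDHA, SESN2, SFTPB, SFTPC, SHMT2 and SNAI1 fall outside that rule and were chosen after their values were seen. A gene of the study's list is not reported here.

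Replicate numbers come from the labels. Deviations of same-numbered arrays from their group means correlated at 0.57, 0.18 and 0.28 between 1 and 3 weeks of CSE 1%, which treats them as paired, and at 0.44, -0.24 and -0.18 in control. For arrays with different numbers the correlation ran from -0.52 to 0.30 with CSE 1% and from -0.50 to 0.52 in control. Labels of control arrays at 5 weeks conflict between title and source, and these arrays entered no contrast. They served to estimate the common variance, and also entered the principal components and the choice of the brightest cluster. Alternatives were another B limit, adjusted p, the compared arrays alone, no control arrays at 5 weeks, a replicate block, a brightness filter keeping 60% of clusters, cyclic loess, centring on housekeeping genes, a trended robust variance, averaged clusters and leaving out each array. The compared arrays with a replicate block were added after seeing the data.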

Additional observations from a re-analysis of the deposited data

Results flagged for a closer look

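Several genes changed differently with CSE 1% than in control cells by the test of that difference in limma. The differences, as the change with CSE 1% less the control change on the log2 scale, were 2.15 for CYP1B1, 1.51 for FRAS1, 1.50 for HIPK2, 1.43 for CEMIP, 1.39 for FN1, 1.29 for TIPARP, 1.18 for CMTM3 and 0.93 for MTMR11. On the other side they were -2.49 for CRYAB, -2.20 for MAPK4, -2.10 for SGK1, -1.82 for KIF20A, -1.73 for DTL, -1.53 for ARRDC4, -1.33 for STMN1 and -1.02 for MCM3. These genes have the smallest p in each direction, and KIF20A, DTL, STMN1, which destabilises microtubules, and MCM3, part of the replicative helicase, rose in control.

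Against CSE 5% the change with CSE 1% differed by 1.81 for NUPR1, 1.15 for FUT1 and 1.04 for MOB3C, and by -1.86 for APOBEC3B, -1.74 for SGK1 and -1.65 for SCD. Against CSE 10% it differed by 4.79 for HSPA6, 2.57 for ANKRD1 and 1.95 for DNAJB1, and by -2.64 for CST1, -1.80 for EGLN3 and -1.79 for SCD. HSPA6 and DNAJB1 are heat shock genes.

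The 12083 transcript clusters with no symbol are not among the genes compared, but they entered the fit and the adjustment of p. Of them 247 were higher at 3 weeks of CSE 1% than at 1 week and 70 were lower by the same fold limit and B. Genes with a symbol showed the opposite balance.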

How the results depend on the processing

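No named gene that passed adjusted p, in the main fit or an alternative, had the opposite sign in the other. Counts cannot reverse in this sense, and some moved widely. The metallothionein count that fell with CSE 1% went from 4 to 0 with 1 array left out. The oxidative phosphorylation count that differed downwards from control went from 12 to 1 in another setting. With 1 array left out, the CSE 1% contrast gave 38 to 72 genes higher and 146 to 160 lower, and the difference from control 31 to 52 and 139 to 169. Upwards, 71 genes passed without replicate 1 at 1 week and 72 without replicate 3 at 3 weeks of CSE 1%, and 52 differences from control without replicate 3 of control at 1 week. Differences from CSE 5% gave 14 to 24 and 113 to 159, and from CSE 10% 58 to 73 and 106 to 145. Centred on the housekeeping genes, 71 genes were higher with CSE 1%, and the difference from control gave 75 and 96. With adjusted p alone the counts were 1737 and 2024 for CSE 1%, 425 and 710 against control, 301 and 461 against CSE 5%, and 477 and 647 against CSE 10%.

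With a replicate block, 46 genes were higher and 148 lower with CSE 1%, and the pairing left 32 and 153 against control, 18 and 121 against CSE 5%, and 64 and 115 against CSE 10%. In the CSE 1% contrast 4 named genes past the threshold lost their call under the block, among them CEP192, KIF20A and SPRED2.

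Of 166 named genes past the threshold, 32 fell below it under 1 or more settings, 26 of them with 1 array left out. They were ABCA3, ACADVL, ANKRD1, BHLHE40, CEACAM5, CEP192, FAS, H1-5, H4C3, HERC6, HMOX1, HSPA5, HSPB1, IFIT2, IFIT3, KIF20A, KIF23, MT1G, MT1H, MT1X, MT2A, PDIA4, PSMB3, PSMC4, SMAD3, SPRED2, SPRY4, TEF, TFF3, TNFRSF10B, TUBB and TXNRD1. The causes were not tested.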
